A study of Mus musculus with 6 samples.

Results

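Schwann cells are the glia of peripheral nerves, and 8 genes that mark them or the myelin they make were examined in subcutaneous white adipose tissue (scWAT): *Sox10*, *Mbp*, *Mag*, *Pmp22*, *Prx*, *Cdh19*, *Erbb3* and *Ncam1*. The genes were chosen by symbol among the 55401 genes of the count tables, and all 8 were found. The comparison addresses whether glial transcripts changed together with *S100b*, which encodes a calcium-binding protein made by glia and by adipocytes. RNA was taken from scWAT of 8 weeks old male mice, with 3 mice in each group. The control mice, labelled WT and named YT-FF in the study's methods, carried floxed *Yap* and *Taz* alleles without Cre. The YT-AKO mice (genotype Yapfl/fl/Tazfl/fl;AdipoqCre) carried the same floxed alleles and Cre under the *Adipoq* promoter, which acts in mature adipocytes. Both groups were kept at room temperature on normal chow, and the strain background was mixed C57BL/6 and 129.

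Nerves in fat hold axons of sympathetic and sensory neurons wrapped by Schwann cells. Most sympathetic axons are unmyelinated and lie in bundles held by non-myelinating Schwann cells, while larger axons are covered by compact myelin. The transcription factor SOX10 keeps Schwann cells in their lineage and switches on EGR2, which drives the myelin genes. Neuregulin on the axon signals through the ERBB2 and ERBB3 receptors to keep the glia alive and dividing. In bulk tissue, fewer cells of a type and less RNA per cell cannot be told apart.

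The libraries held 17740987 to 21838493 counted fragments, and 16807 genes passed the filter on low counts. Of the targeted genes, *Yap1* had 1295 to 1622 counts in YT-FF and 492 to 649 in the YT-AKO-labelled libraries, a log2 fold change of -0.98. *Wwtr1*, which encodes TAZ, went against the label with a log2 fold change of 0.89, so the groups are called by their labels and each direction below follows them. A gene's count joins all of its exons, so it does not show the loss of a floxed exon. Levels are given as CPM, counts scaled to the library total and edgeR's TMM factor. Values of a group stand in the order of its libraries 1 to 3. The adipocyte gene *Adipoq* was present in every library at 1473 to 2402 CPM. The library YT-AKO 2 stood apart, with 20501 genes detected against 22810 to 24576 in the other libraries and the lowest TMM factor, 0.777. Over all tested genes, the log2 fold change went with gene length (Spearman's rho -0.376 across genes, which are not independent replicates).

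*S100b* was called higher, and 0 of the 8 glial genes were, beside 12.6% of all tested genes. *S100b* (ENSMUSG00000033208, chromosome 10, 76253853 to 76261159 of mm10) lay at 3.92, 3.56 and 8.65 CPM in the 3 YT-FF libraries and at 89.1, 218 and 148 CPM in the YT-AKO-labelled libraries. Its log2 fold change of 4.82 had a 95% interval of 3.71 to 5.94 (adjusted p = 0.00851 by the quasi-likelihood test of edgeR, adjusted by Benjamini-Hochberg). With the threshold for a call set at an adjusted p of 0.05, 0 of the 8 glial genes passed in either direction, beside 21.6% of all tested genes. Under the stricter rule of an adjusted p below 0.01 and a change of more than 1 on the log2 scale, 0 of the 8 passed too, beside 0.125% of all tested genes. With edgeR, 1 of the 8 had an unadjusted p under 0.05, as had 40.8% of all tested genes. DESeq2 and limma-voom also called 0 of the 8, with 2 at an unadjusted p under 0.05 in each. The log2 fold change was below 0 for 6 genes and above 0 for 2, with a median of -0.29 beside -0.02 over all tested genes. *Mbp* turned to 0.23 after a correction for gene length, and *Mag* and *Prx* to -0.32 and -0.35 with library totals alone. The highest upper bound among the 8 intervals was 0.75 on the log2 scale, for *Prx*, and the lower bound of *S100b* was 3.71.

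**Figure D1:**
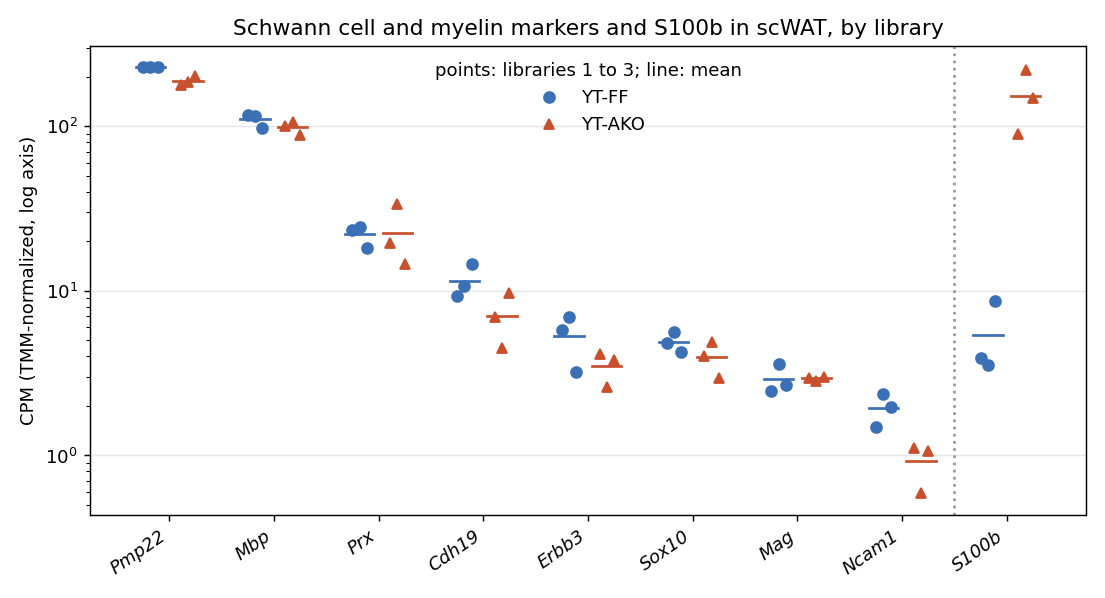
TMM-normalized CPM on a log axis for each of the 8 genes and *S100b*, with 1 point per library (circles YT-FF, triangles YT-AKO) and a line at each group's mean of 3 libraries. The groups overlap for 6 of the 8 glial genes, and for *Pmp22* and *Ncam1* the YT-AKO-labelled points lie below the YT-FF points. The *S100b* points of the YT-AKO-labelled libraries (89.1 to 218 CPM) sit far above the YT-FF points (3.56 to 8.65 CPM).

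*Sox10* (ENSMUSG00000033006, chromosome 15, 79154908 to 79165240, minus strand) encodes the transcription factor on which the Schwann lineage depends. Its counts were 113, 128 and 83 in the YT-FF libraries and 69, 83 and 50 in those labelled YT-AKO. This gave 4.82, 5.63 and 4.27 CPM against 4.01, 4.90 and 2.96 CPM. The groups overlapped, since YT-AKO 2 lay above YT-FF 1 and 3. The log2 fold change was -0.31 (standard error 0.286, 95% interval -0.97 to 0.35, adjusted p = 0.437, edgeR). The interval thus spans a fold of 0.509 to 1.28, whereas that of *S100b* spans 13.1 to 61.4.

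Among the proteins of compact myelin, *Mbp* (ENSMUSG00000041607, chromosome 18, 82475146 to 82585637, plus strand) encodes the protein that holds the cytoplasmic faces of myelin together, and its locus also yields golli transcripts in cells that make no myelin. It lay at 117, 116 and 98.0 CPM in YT-FF and at 101, 106 and 88.2 CPM in the YT-AKO-labelled libraries. These values overlapped and differed by a log2 fold change of -0.16 (95% interval -0.52 to 0.20, adjusted p = 0.457, edgeR). *Pmp22* (ENSMUSG00000018217, chromosome 11, 63128982 to 63159547, plus strand) encodes a tetraspan protein of compact myelin that fibroblasts and other cells also make. It lay at 228 CPM in all 3 YT-FF libraries and at 178, 185 and 201 CPM in the YT-AKO-labelled libraries. The groups did not overlap, and the log2 fold change was -0.28 (95% interval -0.61 to 0.06, adjusted p = 0.187, edgeR). *Pmp22* and *Ncam1* were the 2 members with no overlap in this direction, a pattern found in 25.8% of all tested genes, and 0 members lay without overlap in the other direction, beside 25.6% of all tested genes. After a correction for gene length, *Pmp22* reached -0.52 (adjusted p = 0.0484, edgeR), and with library totals alone -0.60 (adjusted p = 0.0429, edgeR).

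*Mag* (ENSMUSG00000036634, chromosome 7, 30899176 to 30914873, minus strand) encodes an adhesion protein of the Schwann cell membrane that faces the axon. With 52 to 82 counts in YT-FF and 48 to 51 in the YT-AKO-labelled libraries, it was among the least counted members. Its levels were 2.47, 3.60 and 2.68 CPM in YT-FF and 2.97, 2.83 and 3.01 CPM in the YT-AKO-labelled libraries, all of the latter within the YT-FF range. The log2 fold change was 0.01 (95% interval -0.67 to 0.69, adjusted p = 0.984, edgeR). *Prx* (ENSMUSG00000053198, chromosome 7, 27497388 to 27520214, plus strand) encodes periaxin, which ties the outer Schwann cell membrane to the basal lamina, and 5.67% of its exon bases are shared with *Gm15541*. It lay at 23.4, 24.4 and 18.3 CPM in YT-FF and at 19.4, 33.6 and 14.5 CPM in the YT-AKO-labelled libraries. YT-AKO 2 held the highest and YT-AKO 3 the lowest value of the 6, and the log2 fold change was 0.03 (95% interval -0.69 to 0.75, adjusted p = 0.948, edgeR). Without YT-AKO 2 it was -0.38 (adjusted p = 0.158, edgeR).

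*Cdh19* (ENSMUSG00000047216, chromosome 1, 110888326 to 110977584, minus strand) encodes a cadherin of the Schwann cell lineage. It lay at 9.33, 10.7 and 14.5 CPM in YT-FF and at 6.92, 4.48 and 9.75 CPM in the YT-AKO-labelled libraries. YT-AKO 3 lay above YT-FF 1, so the groups overlapped, and the log2 fold change was -0.71 (95% interval -1.45 to 0.04, adjusted p = 0.138, edgeR). *Erbb3* (ENSMUSG00000018166, chromosome 10, 128567523 to 128589652, minus strand) encodes the neuregulin receptor of Schwann cells and is also made by epithelial cells and melanocytes. It lay at 5.80, 6.94 and 3.19 CPM in YT-FF and at 4.13, 2.60 and 3.78 CPM in the YT-AKO-labelled libraries. YT-FF 3 fell among the YT-AKO-labelled libraries, and the log2 fold change was -0.60 (95% interval -1.43 to 0.23, adjusted p = 0.240, edgeR). *Ncam1* (ENSMUSG00000039542, chromosome 9, 49502136 to 49798925, minus strand) encodes an adhesion molecule of non-myelinating Schwann cells, neurons and regenerating muscle, with 4.81% of its exon bases shared with *Gm11149*.

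*Ncam1* had the fewest counts, 35, 54 and 38 in YT-FF and 19, 10 and 18 in the YT-AKO-labelled libraries. Its CPM were 1.49, 2.37 and 1.96 against 1.10, 0.590 and 1.06, and the groups did not overlap. Its log2 fold change of -1.07 was the lowest of the 8 (95% interval -2.05 to -0.09, adjusted p = 0.0981, edgeR), and it had the unadjusted p under 0.05, 0.0355. After the length correction it was -0.72 (adjusted p = 0.227, edgeR). Of the 6 tested skeletal muscle genes, 1 was called, *Acta1*, and it was higher, beside 12.6% of all tested genes called higher. The list summed to 407, 112 and 160 CPM in YT-FF and to 2950, 438 and 208 CPM in the YT-AKO-labelled libraries, so the groups overlapped. In YT-AKO 1, which held the highest sum, *Ncam1* was at 1.10 CPM, and the part of these genes in the *Ncam1* values was not tested.

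**Figure D2:**
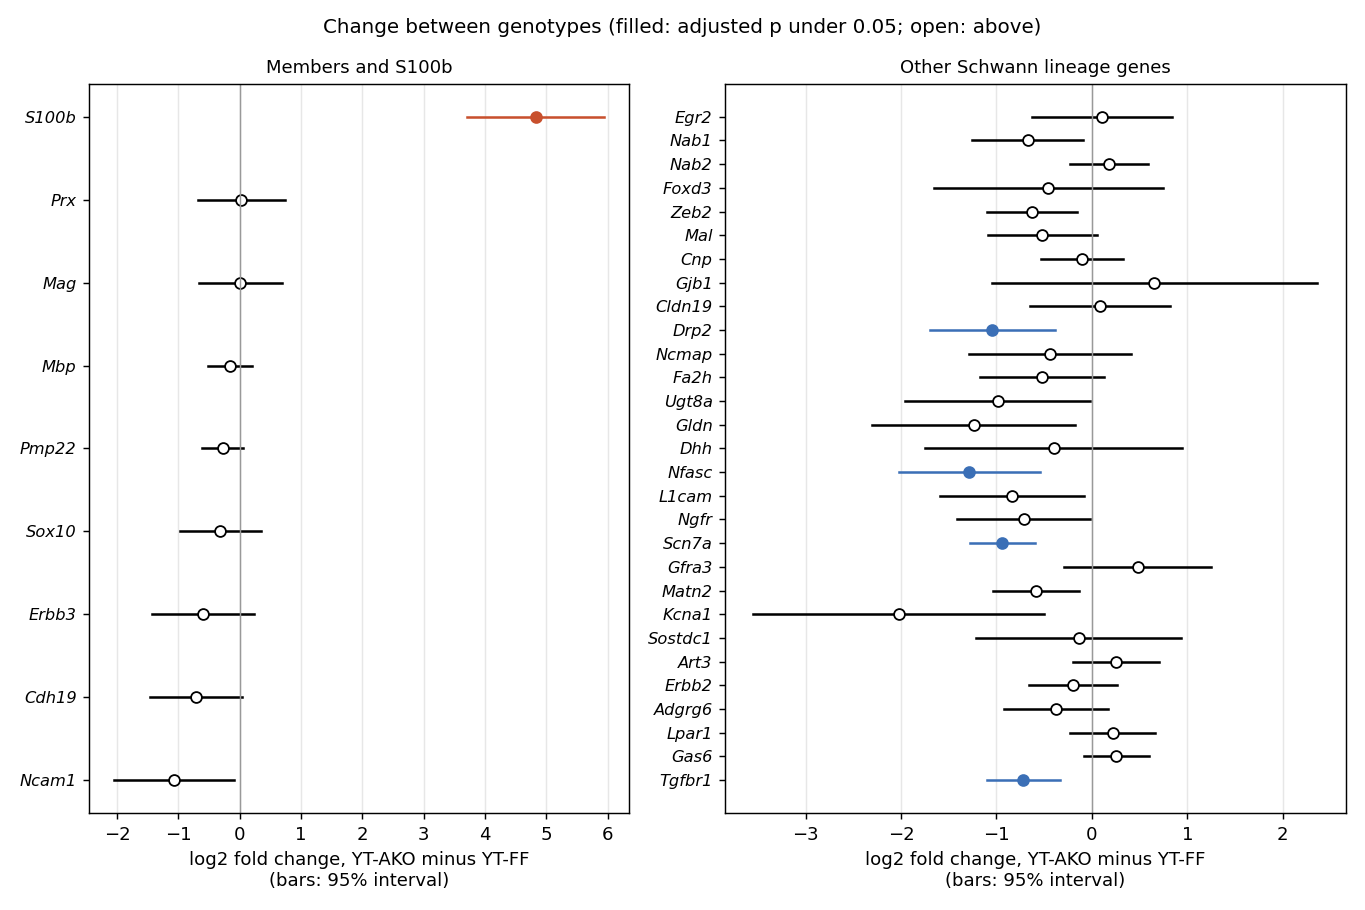
Log2 fold changes (YT-AKO over YT-FF, by label) with 95% intervals from edgeR, for the 8 genes and *S100b* (left) and tested genes of the other Schwann lineage lists (right), filled where the adjusted p was under 0.05. The intervals of the 8 genes end at or below 0.75, and the interval of *S100b* begins at 3.71. On the right, 4 genes are filled, all below 0.

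Levels can be compared between genes only per length, as TPM, which divides counts by summed exon length and scales each library to the same total. In YT-FF, *Pmp22* was highest at 368 ± 16.5 TPM (mean ± SD, n = 3), followed by *Mbp* at 49.5 ± 6.77, *Prx* at 14.9 ± 2.83, *Cdh19* at 10.2 ± 1.94, *Sox10* at 6.13 ± 1.11, *Erbb3* at 3.39 ± 1.35, *Mag* at 2.73 ± 0.659 and *Ncam1* at 0.853 ± 0.212. The libraries of *Prx* and *Cdh19* overlapped, as did those of *Erbb3* and *Mag*, while the other neighbours in this order did not. *S100b*, at 13.5 ± 6.48 TPM, fell between *Prx* and *Cdh19* and overlapped both. In the YT-AKO-labelled libraries the order of the 8 genes was the same except that *Mag* (1.75 ± 0.464 TPM) lay above *Erbb3* (1.46 ± 0.618 TPM). There *S100b* reached 232 ± 56.3 TPM, above *Pmp22* at 194 ± 49.5, and the 2 genes overlapped. TPM was lower in the YT-AKO-labelled libraries for all 8 genes, with no overlap between the groups for any of them, a pattern found in 54.5% of all tested genes. The median log2 ratio of mean TPM was -0.97 over the 8 genes and -0.66 over all tested genes, whereas that of *S100b* was 4.10.

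For each library, the counts of *S100b* were divided by those of each member, a ratio that library size does not touch. Per count of *Sox10*, there were 0.814, 0.633 and 2.02 counts of *S100b* in the 3 YT-FF libraries and 22.2, 44.6 and 50.02 in the YT-AKO-labelled libraries. Per count of *Mbp*, the ratio went from 0.0336, 0.0308 and 0.0883 to 0.884, 2.06 and 1.68. The ratio was higher in 3 of 3 libraries labelled YT-AKO than in any YT-FF library for all 8 genes. The mean log2 ratio (0.5 counts added to both) differed by 4.81 for *Mag*, the smallest difference, and by 5.92 for *Ncam1*, the largest. For *Sox10* it rose from 0.02 ± 0.878 to 5.19 ± 0.632 (mean ± SD, n = 3), a difference of 5.17, or 35.9-fold. Each of the 8 two-sided exact permutation tests gave p = 0.1, the smallest p that 3 libraries against 3 allow, and 0.1 after Benjamini-Hochberg adjustment over the 8 ratios. 

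**Figure D3:**
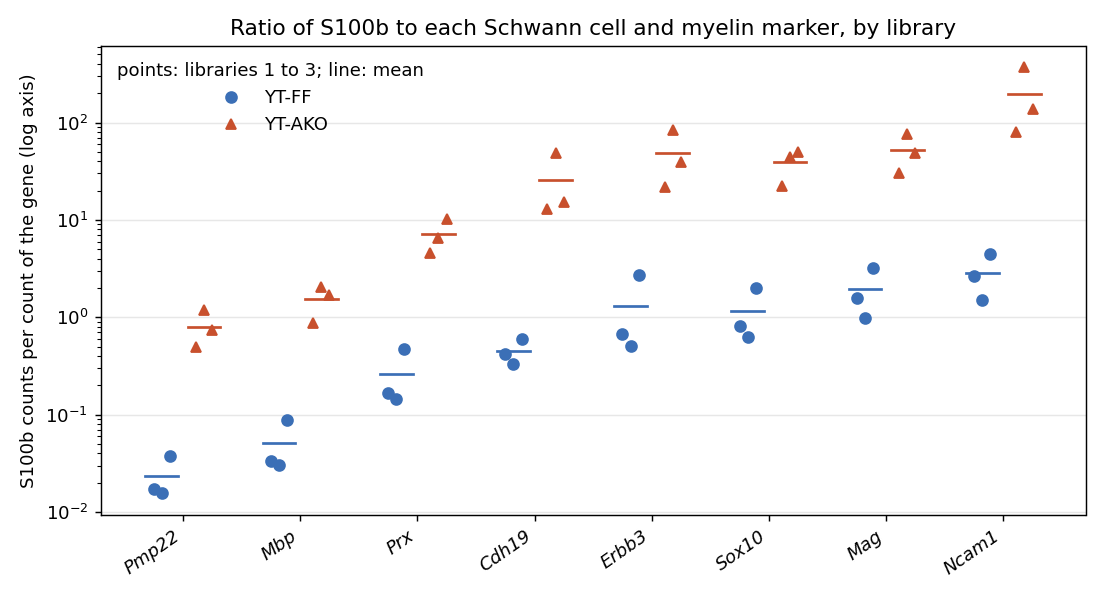
Counts of *S100b* per count of each member on a log axis, with 1 point per library (circles YT-FF, triangles YT-AKO) and a line at each group's mean of 3 libraries. The triangles lie above the circles for all 8 genes, as for *Sox10*, from 0.633 to 2.02 in YT-FF to 22.2 to 50.02 in the YT-AKO-labelled libraries.

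The 250 bases before the transcription start are shown for *S100b* and for 2 of the glial genes, so that the region from which the gene that rose is transcribed can be read beside those of *Mag* and *Prx*, whose log2 fold changes were nearest to 0. They are RefSeq promoters of GRCm38.p6, the assembly of mm10, and the table held 3 of the 8 members and *S100b*. For *Mag*, the first of its listed starts is shown. Capitals mark matches, on either strand, to the SOX motifs ACAAAG and ACAATG, the EGR motif GCGTGGG, the C/EBP core TTGCNNAA and the TEAD core GGAATG, TEAD being the DNA-binding partner of YAP and TAZ.
S100b, chr10:76253586-76253835, plus strand: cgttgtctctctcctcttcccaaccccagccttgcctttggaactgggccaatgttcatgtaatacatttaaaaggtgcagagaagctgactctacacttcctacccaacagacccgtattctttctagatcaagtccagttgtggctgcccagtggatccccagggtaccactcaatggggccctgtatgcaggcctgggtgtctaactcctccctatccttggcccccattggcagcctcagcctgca
Mag, chr7:30914864-30915113, minus strand: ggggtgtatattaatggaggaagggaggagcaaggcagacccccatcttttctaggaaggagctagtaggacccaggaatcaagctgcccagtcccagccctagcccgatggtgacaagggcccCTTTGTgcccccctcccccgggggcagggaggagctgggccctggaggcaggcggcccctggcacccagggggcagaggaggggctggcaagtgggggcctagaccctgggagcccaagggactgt
Prx, chr7:27499074-27499323, plus strand: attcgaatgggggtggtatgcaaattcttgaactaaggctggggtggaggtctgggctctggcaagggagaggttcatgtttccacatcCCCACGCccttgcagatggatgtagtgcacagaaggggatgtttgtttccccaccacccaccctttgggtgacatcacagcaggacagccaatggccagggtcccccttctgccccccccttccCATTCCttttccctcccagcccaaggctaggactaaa
The window of *Mag* held 1 SOX match, and that of *Prx* held 1 EGR match and 1 TEAD match, none of them overlapping. Of the *Mag* starts not shown, start 2 held 1 SOX match, and start 3 held 2 C/EBP matches, 1 TEAD match and 0 SOX matches. The *S100b* window held none of these letter strings, which says only that they are not in these 250 bases. Of all 32851 promoter windows of this length, 25.2% held a SOX match, 4.3% an EGR match, 9.56% a C/EBP match and 12.6% a TEAD match.

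Beside the 8 genes, 39 other genes of the Schwann lineage were examined, of which 31 passed the filter. Calls by edgeR numbered 4, all of them lower, which is 12.9% of the 31, beside 9.01% called lower and 12.6% called higher among all tested genes. The log2 fold change was below 0 in 22 and above 0 in 9, with a median of -0.44. Among the transcription factors, 5 of 9 were tested and 0 called. *Egr2*, which drives the myelin genes, lay at 8.40 ± 1.08 CPM in YT-FF and 9.04 ± 3.92 CPM in the YT-AKO-labelled libraries (mean ± SD, n = 3). *Zeb2*, a repressor that Schwann cells share with many other cells, had a log2 fold change of -0.63 (adjusted p = 0.0611, edgeR). The EGR corepressors *Nab1* and *Nab2* differed by -0.67 and 0.18 on the log2 scale (adjusted p = 0.0869 and 0.469, edgeR). *Pou3f1*, *Pou3f2*, *Sox2* and *Tfap2a* did not pass the filter.

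Of the 14 peripheral myelin and paranode genes, 13 were tested, and *Drp2* and *Nfasc* were called lower. *Cnp* and *Mal*, both myelin proteins, had log2 fold changes of -0.10 and -0.52 (adjusted p = 0.701 and 0.151, edgeR). *Drp2*, which binds periaxin at the Schwann cell surface, fell from 13.1 ± 3.96 to 6.36 ± 0.919 CPM (mean ± SD, n = 3, log2 fold change -1.04, adjusted p = 0.0386, edgeR). *Nfasc*, an adhesion molecule of paranodes made by glia and, in another form, by axons, fell from 7.24 ± 1.13 to 2.97 ± 1.06 CPM (log2 fold change -1.28, adjusted p = 0.0320, edgeR). After the length correction both missed the threshold, *Drp2* at -0.66 (adjusted p = 0.126, edgeR) and *Nfasc* at -0.75 (adjusted p = 0.0851, edgeR).

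Of the 10 non-myelinating and immature Schwann cell genes, 8 were tested and *Scn7a*, an atypical sodium channel, was called lower. Its mean level fell from 172 ± 13.9 to 89.8 ± 4.03 CPM (SD, n = 3), with a log2 fold change of -0.94 (adjusted p = 0.0177, edgeR), and -0.63 after the length correction (adjusted p = 0.0358, edgeR). *Art3*, an ecto-ADP-ribosyltransferase, and *Matn2*, a matrix protein, had log2 fold changes of 0.26 and -0.58 (adjusted p = 0.346 and 0.0655, edgeR). *L1cam*, an adhesion molecule of unmyelinated fibres, was at -0.84 (adjusted p = 0.0939, edgeR). Of the 6 receptors and ligands, 5 were tested and *Tgfbr1*, a TGF-beta receptor present in most cells, was called lower, at -0.72 (adjusted p = 0.0271, edgeR). *Gas6* and *Lpar1* were at 0.26 and 0.22 (adjusted p = 0.215 and 0.419, edgeR). *Erbb2*, the partner of *Erbb3*, was at 8.29 ± 0.250 against 7.23 ± 0.603 CPM (log2 fold change -0.20, adjusted p = 0.477, edgeR), and *Nrg1*, whose product binds ERBB3, did not pass the filter.

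The number of calls depended on single libraries. Without YT-FF 1 or YT-FF 2, 0 of the other Schwann lineage genes were called, but there 0 and 2 of all tested genes were called, so those fits say nothing about the glial genes. Without YT-FF 3 the count was 2, and without YT-AKO 2 it was 9, all lower. Over all tested genes, 528 were called lower without YT-FF 3 and 2424 without YT-AKO 2, against 1515 with all libraries. Of the 8 members, 0 were called in each of the 6 fits. *S100b* stayed between 4.47 and 5.34 on the log2 scale, with an adjusted p (edgeR) of 0.0870 without YT-FF 1 and 0.0787 without YT-FF 2.

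Markers of other cells that could share these genes gave the following values. Sympathetic neuron and axon genes were sparse: 6 of 17 were tested, and the enzyme genes *Th* and *Dbh* had 0 counts in every library, where 3 counts would be 0.128 to 0.177 CPM (counting error only). These transcript counts do not measure nerve density, which the study examined by staining TH protein. Of the 6 tested genes, 1 was called higher, beside 12.6% of all tested genes. *Uchl1*, a deubiquitinase abundant in neurons, was called higher, from 4.11 ± 0.618 to 7.60 ± 1.49 CPM (log2 fold change 0.88, adjusted p = 0.0455, edgeR), and 18.1% of its exon bases are shared with *Uchl1os*. With any 1 of the 6 libraries left out, *Uchl1* missed the threshold, at adjusted p of 0.0522 to 0.167 (edgeR). *Stmn2*, a growth cone protein gene, was at 5.66 ± 0.122 against 6.27 ± 1.97 CPM, *Slc18a2* at 2.83 ± 0.606 against 2.94 ± 0.786, and *Gap43* at 1.08 ± 0.554 against 1.45 ± 0.441. Of the 5 melanocyte genes, which share *Sox10* and *Erbb3* with glia, 2 were tested and 0 called, with a summed level of 6.13 to 7.29 CPM in YT-FF and 5.35 to 9.08 in the YT-AKO-labelled libraries. Epithelial genes, which share *Erbb3*, summed to 3.66 to 5.10 and 3.84 to 4.88 CPM, with *Krt5* and *Krt15* at 0 counts in all 6 libraries. Of the 5 oligodendrocyte genes, the central counterparts of the myelin genes, 0 passed the filter and their sum stayed at or below 0.827 CPM.

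Genes of thermogenic adipocytes were higher beside *S100b*. Of the 6 beige and brown adipocyte genes, 5 were called higher and *Ppargc1a* was not, beside 12.6% of all tested genes called higher. The median log2 fold change of the 6 was 3.87. *Ucp1*, which uncouples respiration from ATP synthesis, lay at 6.78, 3.69 and 9.84 CPM in YT-FF and at 144, 395 and 243 CPM in the YT-AKO-labelled libraries. Its libraries fall in the same order as those of *S100b* within both groups, with YT-FF 3 and YT-AKO 2 highest. This order was not particular to *Ucp1*. The 7 adipocyte genes summed to 9820, 9630 and 14400 CPM in YT-FF and to 16400, 28900 and 20000 CPM in the YT-AKO-labelled libraries, in the same order. The 6 beige and brown adipocyte genes summed to 157, 164 and 223 CPM in YT-FF, in another order. *Cidea*, *Cox8b*, *Dio2* and *Elovl3* had log2 fold changes of 3.17, 4.56, 3.06 and 5.90. These directions follow the labels, which *Yap1* (log2 fold change -0.98) runs with and *Wwtr1* (0.89) against.

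**Figure D4:**
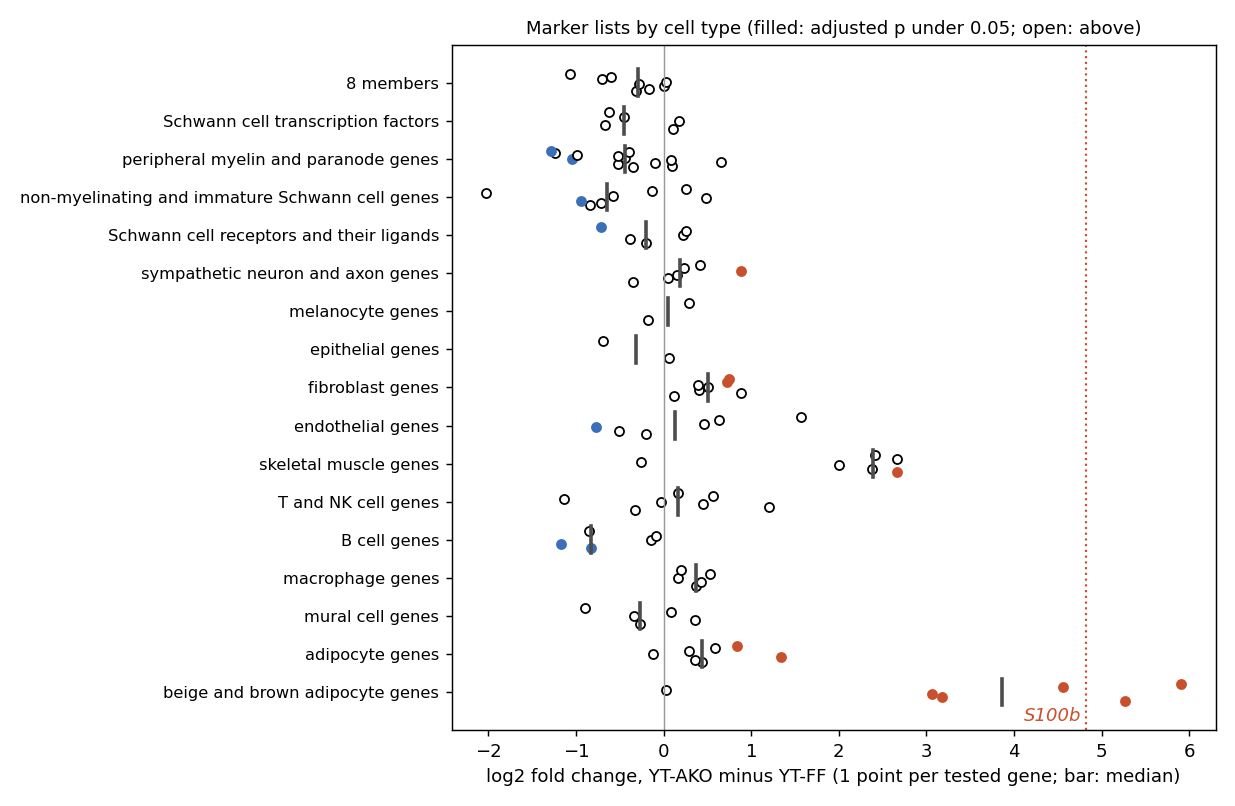
Log2 fold change (YT-AKO over YT-FF, by label) for each tested gene of the marker lists, with a bar at each list's median and filled points where the adjusted p was under 0.05. The medians of the 8 genes (-0.29) and of the other Schwann lineage lists lie below 0, and only points of the beige and brown adipocyte list reach the dotted line of *S100b* at 4.82.

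The genes whose pattern over the 6 libraries was most like that of the glial genes were found from the mean of centred log2 CPM over *Sox10*, *Mbp*, *Mag*, *Prx* and *Cdh19*. That mean was 0.06, 0.26 and 0.05 in the 3 YT-FF libraries and -0.12, -0.03 and -0.23 in the YT-AKO-labelled libraries. Among 15170 genes, the 5 most alike were *D16Ertd472e*, *Elk3*, *Il10ra*, *Pms2* and *Spats2l*, with Pearson's r of 0.980 to 0.988 over 6 libraries. Of the genes in the Schwann lineage lists, *Mal* came at place 52, *Adgrg6* at 259, *Erbb2* at 270, *Fa2h* at 397 and *Drp2* at 480. Others of these lists ran the opposite way, with *Gfra3* at an r of -0.964, *Gas6* at -0.839 and *Art3* at -0.816. These r are a description over 6 libraries that share depth and the length trend.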

How the data were processed

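Mouse scWAT RNA-seq libraries, 3 per genotype, were grouped by their titles. The authors mapped paired-end reads to mm10 with HISAT2, and deposited raw counts per gene (featureCounts 2.0.1, exons of GENCODE vM25). Per the file headers, strand was not used and no option was set to count fragments that hit several places or genes. Of 55401 identifiers, 55141 were matched to a symbol. The total count per library is given with the results, and intervals and floors cover counting error only where they rest on counts.

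Counts were analysed in R 4.3.3 with edgeR 4.0.16 (TMM, filterByExpr with minimum count 10 and total 15, quasi-likelihood test, Benjamini-Hochberg adjustment over 16807 genes). The threshold for a call was an adjusted p of 0.05. Standard errors are the log2 fold change over the root of the F statistic, and 95% intervals use its degrees of freedom. CPM used TMM factors and TPM summed exon lengths. Ratios were compared with exact permutation tests (scipy 1.17.1). Alternatives were DESeq2 1.42.0, limma-voom (limma 3.58.1), other scalings and filters, the robust option of edgeR, replicate numbers as blocks, a length correction (spline, 6 degrees of freedom, per library) and leaving out each library. The length correction without YT-AKO 2 was added after the data were seen. The fits were tested on simulated data. The p-values weigh the difference between the groups against the spread between these libraries.

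The members and lists were chosen with earlier results of these data known. The text names the 8 members, *S100b*, from each list up to 4 genes with the highest mean CPM and the called ones, and the 5 genes most alike. Not every called gene of the B cell list is named. *Mal*, *Ppargc1a*, *Adgrg6*, *Fa2h*, *Gfra3*, genes at 0 counts and those that did not pass the filter were named after their values were seen. Some genes of these lists enter the counts and medians and are not reported here by name.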

Additional observations from a re-analysis of the deposited data

How the results depend on the processing

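Of the 8 members, 0 were called by edgeR, DESeq2 and limma-voom, and the count was 0 to 0 with each library left out, though without YT-FF 1 or YT-FF 2 only 0 and 2 of all genes were called. It was 1, *Pmp22* called lower, with library totals alone (-0.60), with the length correction (-0.52) and, chosen after seeing the data, with the length correction without YT-AKO 2 (-0.46). Over 144 pairs of member and alternative, 3 had an adjusted p under 0.05 and 0 of these were higher. Values near 0 changed sign: *Mbp* was 0.23 with the length correction, 0.21 with the length correction and the block, and 0.049 with the length correction without YT-AKO 2. *Mag* was -0.036 with upper quartiles, -0.32 with library totals alone and -0.022 with 10 counts required in every library. *Prx* was -0.052 with limma-voom, -0.020 with upper quartiles, -0.35 with library totals alone, -0.046 with the block and -0.26 with the length correction without YT-AKO 2. With libraries left out, *Mag* ran from -0.10 to 0.18 and *Prx* from -0.38 to 0.28. Library totals alone lowered the median of all tested genes to -0.34.

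*S100b* kept its direction, between 4.23 and 5.34, over all alternatives. With each library left out it ran from 4.47 to 5.34 and missed the threshold without YT-FF 1 (4.64) or YT-FF 2 (4.59). The differences in log2 ratio of *S100b* to the members stayed between 4.41 and 6.41 with 1 count added or with each library left out. These ratios were not computed with the length correction, and *S100b*, with 1484 exon bases, is shorter than each member. The other Schwann lineage genes called numbered 4, all lower. They were 10 with library totals alone, 2 with the length correction, 6 with DESeq2 and 0 to 9 with libraries left out, all lower. Over all tested genes, the main fit called 1515 lower. Library totals alone called 2828 lower, the length correction 763 and DESeq2 2392. With the replicate number as a block, 0 of the other Schwann lineage genes were called, alone or with the length correction, and 0 of the members. The numbers did not pair the samples, as the correlations of same-numbered deviations were 0.126, -0.118 and -0.0893. Under that block *S100b* was at 4.82 (adjusted p = 0.0377, edgeR), with 24 genes called higher and 9 lower over all genes.

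Ranked by CPM in place of TPM in YT-FF, among the members and *S100b*, *Sox10* took place 7, *Cdh19* 4, *Erbb3* 6 and *S100b* 5. In the YT-AKO-labelled libraries, *Mag* took place 8, *Pmp22* 1, *Erbb3* 7 and *S100b* 2. *Ncam1*, with 10 to 54 counts per library, had the largest standard error of the members, 0.422. The cause of these changes was not tested.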

Other observations

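Other cell types with which *Pmp22*, *Ncam1* and *Mbp* are shared held genes called in both directions when the groups were compared by label, which *Yap1* runs with and *Wwtr1* against. The shares to set beside the calls in this section are 12.6% of all tested genes called higher and 9.01% called lower. Of 7 fibroblast genes, 2 were called higher and 0 lower (edgeR, adjusted p under 0.05): *Lum* and *Pi16*, with log2 fold changes of 0.72 and 0.75. *Col1a1*, *Col3a1* and *Dcn*, which encode collagens and a matrix proteoglycan, were at 0.40, 0.51 and 0.39. Fibroblast genes summed to 4160 to 5100 CPM in YT-FF and 5240 to 7780 CPM in the YT-AKO-labelled libraries. Of 6 endothelial genes, *Kdr*, the VEGF receptor, was called lower at -0.78, and 0 were called higher. The log2 fold change was above 0 for 3 of these 6 genes and below 0 for 3, with a median of 0.13. Endothelial genes summed to 595 to 652 CPM in YT-FF and 552 to 869 CPM in the YT-AKO-labelled libraries, so the groups overlapped.

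Among 5 B cell genes, 2 were called lower, among them *Ms4a1* at -1.17, and 0 were called higher. The list had a summed level of 852 to 988 CPM in YT-FF and 518 to 869 CPM in the YT-AKO-labelled libraries. Of 7 T and NK cell genes, 5 macrophage genes and 5 mural cell genes, 0 were called, with median log2 fold changes of 0.16, 0.36 and -0.27. Of 7 adipocyte genes, *Fabp4* and *Lipe* were called higher, at 1.34 and 0.84. Of 6 tested skeletal muscle genes, *Acta1* was called higher, at 2.67, with 1109 CPM in YT-AKO 1 against 312 and 198 CPM in YT-AKO 2 and 3.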
